A study of Cavia porcellus with 35 samples.

Results

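ZFP57 and a set of imprinted genes were followed in the prefrontal cortex of 35 guinea pigs. The set had 10 named genes: ZFP57, TRIM28, PEG3, IGF2, MEST, PLAGL1, CDKN1C, GRB10, NDN and DLK1. Of these, 7 were listed and passed the filter on low counts in all 4 count tables of the study, out of 10724 genes that did so. TRIM28, CDKN1C and DLK1 were not listed under those symbols in the tables used here and were not analysed. The set was selected on the F1 male comparison, in which ZFP57 had the largest increase, so every value from the F1 male comparison is given as a description without a test.

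At an imprinted gene, the copy inherited from the mother or the copy inherited from the father is silenced. The copies are told apart by DNA methylation laid down in the germline. ZFP57 is a KRAB zinc finger protein that binds the methylated copy of imprinting control regions and recruits TRIM28, which keeps the methylation in place when most other methylation is erased in the early embryo. Among the listed members, IGF2 encodes a growth factor and GRB10 an adaptor that restrains insulin receptor signalling, PLAGL1 and PEG3 encode zinc finger proteins, MEST encodes an enzyme of the alpha/beta hydrolase fold, and NDN encodes necdin, a protein of postmitotic neurons. Their imprinting is known from mouse or human. Total expression was measured here, not the expression of each parental copy.

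Pregnant guinea pigs had received repeated courses of the synthetic glucocorticoid betamethasone (sGC, named Beta in the sample labels) or saline (Control), and their offspring formed the F1 generation. F2 and F3 animals descended through the paternal line, from F1 and F2 males mated with females outside the experiment, so in all generations but F1 the sGC exposure was that of an ancestor. All animals were killed at postnatal day 40, and polyadenylated RNA from micropunches of the right frontal cortex was sequenced: 4 Control and 4 sGC females in each of F1, F2 and F3, and 5 Control and 6 sGC males in F1. The sample labels give prefrontal cortex as the source, but their extraction text names the paraventricular nucleus.

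Each female library held 12819964 to 19551079 counted reads, and each male library 25697953 to 31763585. The cortical marker CAMK2A led the list of cortical excitatory neuron markers, whose sum was between 1743 and 6429 CPM (reads scaled to the library's size) in every animal. TRH and OTP, both markers of the paraventricular hypothalamus, were not listed in any table, and SST, which cortical interneurons also express, was the highest gene on that list. In F1 females, the summed markers of striatal neurons were 548 to 2330 CPM in Control and 243 to 558 CPM in sGC animals, and the cortical excitatory sum was 1743 to 3079 CPM in Control and 3072 to 6429 CPM in sGC animals. Gene by gene, the median log2 fold change in F1 females was 1.96 over the 6 cortical excitatory markers tested and -2.34 over the 8 striatal markers tested. The part of these marker differences in the F1 female results was not tested. In bulk tissue, fewer cells of a type and less RNA per cell cannot be told apart.

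ZFP57 differed between Control and sGC animals in opposite directions in the F1 and F2 females. Mean ZFP57 was 246 ± 116 CPM in F1 female controls and 126 ± 28.3 CPM in F1 sGC females (SD, n = 4 each). Among F2 females, the controls had 88.9 ± 23.3 CPM and the sGC animals 184 ± 49.4 CPM (SD, n = 4 each). The difference in response between the F1 and F2 females was 1.999 in log2 units (SE 0.41, FDR = 0.00907 in edgeR's quasi-likelihood test, 16 animals), and it passed the FDR threshold of 0.05 in all 16 fits that left out a single animal. In this comparison of responses, 13.8% of the 11166 genes tested passed.

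The F1 female controls held the widest spread of ZFP57. The Control animals were at 121, 398, 263 and 204 CPM and the sGC animals at 130, 157, 88.5 and 130 CPM. Controls 2, 3 and 4 lay above every sGC animal, and Control 1 lay among the sGC animals. The log2 fold change of sGC against Control was -0.96 (SE 0.32, 95% confidence interval -1.70 to -0.23), which did not pass in edgeR's quasi-likelihood test (FDR = 0.0732) and passed in its likelihood ratio test (FDR = 0.0234). DESeq2 gave an FDR of 0.0537 and an exact two-sided permutation of log2 CPM a p of 0.114. Without Control 1 it was -1.17 (quasi-likelihood FDR = 0.0186), and without Control 2 it was -0.63 (FDR = 0.157).

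F2 females showed a difference with no overlap between groups. The F2 controls were at 124, 77.3, 80.4 and 74.3 CPM, and the F2 sGC females at 186, 126, 246 and 175 CPM. All 4 sGC animals were above all 4 controls, a separation in this direction that 4.08% of the genes tested in F2 females had. The log2 fold change was 1.05 (SE 0.20, 95% confidence interval 0.60 to 1.49), a 2.06-fold higher level. It missed the threshold in the quasi-likelihood test (FDR = 0.0516), passed in the likelihood ratio test (FDR = 0.000111) and in DESeq2 (FDR = 0.00678), and gave the smallest p that an exact two-sided permutation of 4 against 4 animals allows (p = 0.0286). Adjusted over the 21 such permutation tests made for the 7 members in females, that p was 0.3. Leaving out Control 1 gave a quasi-likelihood FDR of 0.0228 and leaving out sGC animal 2 an FDR of 0.00565, while the other 6 such fits gave 0.0921 to 0.167. The summed markers of upper cortical layers were 645 to 800 CPM in F2 controls and 458 to 619 CPM in F2 sGC females, without overlap (log2 difference -0.44). Those of deep cortical layers were 243 to 320 CPM and 279 to 524 CPM (log2 difference 0.54). The part of these cortical layer differences in ZFP57 was not tested.

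The F3 females showed a smaller difference. Controls were at 156, 56.5, 83.7 and 92.5 CPM and sGC females at 137, 119, 77.4 and 144 CPM. The groups overlapped, and the highest animal was a control. ZFP57 had a log2 fold change of 0.30 (SE 0.29, 95% confidence interval -0.35 to 0.94, quasi-likelihood FDR = 0.651). The responses of F1 and F3 females differed by 1.24 log2 units (SE 0.47) and those of F2 and F3 females by -0.75 (SE 0.39), and neither difference passed the quasi-likelihood threshold (FDR = 0.234 and 0.471), which 0.0981% and 0.018% of the genes tested did.

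In F1 males, the comparison that chose ZFP57, controls were at 33.5, 26.3, 21.8, 17.7 and 31.7 CPM. The sGC males ranged from 46.1 to 75.9 CPM with a median of 62.6 CPM. All 6 sGC males lay above all 5 controls, as for 4.22% of the genes tested in males, and the log2 fold change was 1.24 (SE 0.17). Leaving out any single male gave a log2 fold change between 1.12 and 1.34.

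Over the 8 conditions, mean ZFP57 was highest in F1 female controls (246 CPM), followed by F2 sGC females (184 CPM), F1 sGC females (126 CPM), F3 sGC females (119 CPM), F3 female controls (97.1 CPM), F2 female controls (88.9 CPM), sGC males (61.7 CPM) and male controls (26.2 CPM). Neighbours in this order overlapped in range in 6 of 7 cases, the exception being the sGC and Control males. The tables were counted separately, so levels were not tested across them.

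**Figure D1:**
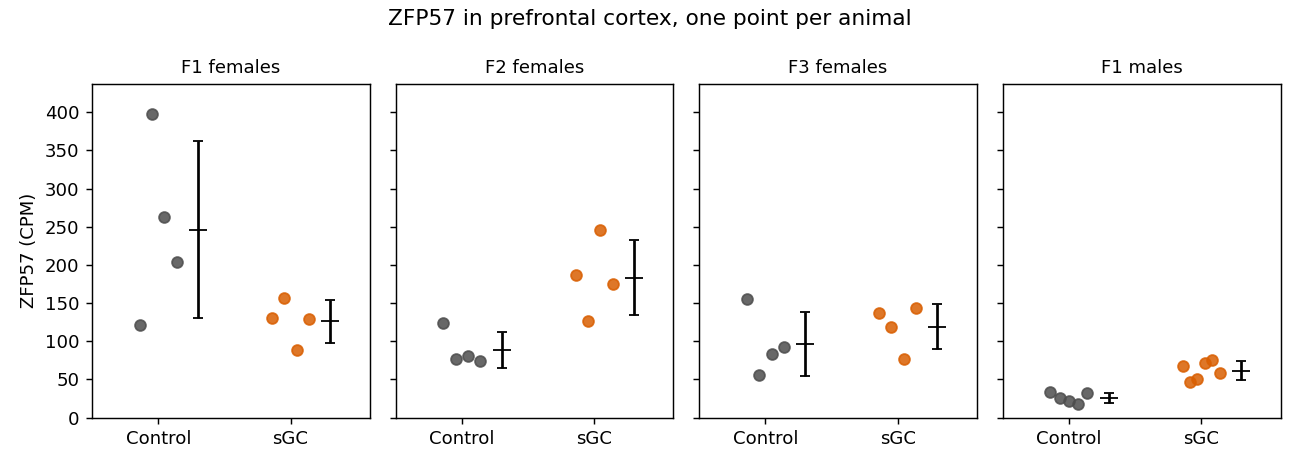
ZFP57 in CPM (vertical axis) for each animal in the F1, F2 and F3 females and F1 males, Control in grey and sGC in orange, with the mean ± SD beside each group. The sGC animals sit above all controls in F2 females and F1 males, while in F1 females the 3 highest animals are controls.

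ZFP57 varied from animal to animal with the markers of oligodendrocytes, the myelinating cells of the brain. After the mean of each table and treatment was subtracted, the genes whose log2 CPM was most like that of ZFP57 over the 35 animals were MOG (Pearson r = 0.92), CLDN11 (0.90), CNP (0.90), FA2H (0.90), PLEKHG3 (0.90), PPP1R14A (0.89), CD9 (0.89), SLC44A1 (0.89), GPR37 (0.89) and ADAMTS4 (0.89), out of 10723 genes. MOG, CLDN11 and CNP encode structural proteins or enzymes of myelin, and FA2H makes the hydroxylated fatty acids of myelin lipids. The least alike were GPR52 (r = -0.82), SLC24A4 (-0.81) and DCLK3 (-0.79). All 7 oligodendrocyte markers listed in every table had an r of 0.82 or more with ZFP57. These correlations are descriptions, and genes measured in the same library share its depth and tissue makeup.

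The summed CPM of those 7 oligodendrocyte markers had a Pearson r of 0.90 and a Spearman rho of 0.86 with ZFP57 over the 35 animals, and an r of 0.87 without the 2 animals farthest from the median sum. Within tables, r was 0.996 in F1 females (n = 8), 0.96 in F2 females (n = 8), 0.82 in F3 females (n = 8) and 0.82 in F1 males (n = 11). Without the 2 farthest animals of each table it was 0.996, 0.93, 0.34 and 0.74, so in F3 females the size of r depended on those 2 animals. The Spearman rho over all 8 F3 females was 0.69. Other marker sums had an r with ZFP57 of 0.82 (oligodendrocyte precursors), 0.63 (deep cortical layers), -0.74 (upper cortical layers), 0.06 (astrocytes) and 0.02 (microglia).

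The marker sum also moved with treatment in the direction of ZFP57 in each table. It was 1873 to 5976 CPM in F1 female controls and 1434 to 2808 CPM in F1 sGC females, a mean difference of -0.67 on the log2 scale. In F2 females it was 1332 to 2011 CPM in controls and 1926 to 4371 CPM in sGC animals, a difference of 0.94. The F3 sums were 3137 to 8292 CPM and 5586 to 7858 CPM, a difference of 0.42, and those of the F1 males were 1380 to 2636 CPM and 2756 to 5150 CPM, a difference of 0.99. None of the oligodendrocyte markers tested passed the quasi-likelihood threshold in any female table, with 3 of 8 at an unadjusted p under 0.05 in F1 females, 8 of 8 in F2 females and 0 of 7 in F3 females, beside 34.2%, 16.1% and 17.3% of all genes. The likelihood ratio test called 1, 8 and 0 of them, beside 18.6%, 4.8% and 5.39% of all genes, and DESeq2 0, 8 and 0, beside 21.5%, 4.25% and 5.53%. MBP and MOBP were not listed.

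As a share of the marker sum, ZFP57 was steadier than its CPM. It was 6.47% to 6.69% of the sum in F1 female controls, whose ZFP57 CPM ranged from 121 to 398, and 5.57% to 6.17% in F1 sGC females. The log2 ratio was lower by a mean of 0.20 in F1 sGC females, with all 4 below the controls (exact two-sided permutation p = 0.0286, the smallest possible, and 0.0857 adjusted over the 3 female tables). In F2 females the share was 5.13% to 6.15% in controls and 5.64% to 6.55% in sGC animals, a log2 difference of 0.10 (exact permutation p = 0.286) against 1.04 for ZFP57 itself on the same scale. In F3 females the shares were 1.49% to 2.29% and 1.38% to 2.25%, a log2 difference of -0.07 (exact permutation p = 0.771). The F1 males had shares of 1.20% to 1.58% in controls and 1.29% to 1.88% in sGC animals, a log2 difference of 0.26 against 1.25 for ZFP57 itself. These ratios were added after the data were seen.

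MOG, which encodes myelin oligodendrocyte glycoprotein and had the highest r with ZFP57, is the neighbour of ZFP57 in the human and mouse genomes. In RefSeq's guinea pig annotation (assembly mCavPor4.1), the positions listed for the genes overlap, though the table used here names no chromosome for either and the build behind the counts is not given in the sources used here. The counting is not stated to use strand, so reads from overlapping parts of the genes could not be told apart, and the ZFP57 count is uncertain on that account. ZFP57 reads were 54.4% to 56.6% of MOG reads in F1 female controls and 51.2% to 52.4% in F1 sGC females, while MOG itself ranged from 2475 to 10166 reads. In F2 females the percentages were 50.9% to 57.0% in controls and 48.7% to 55.2% in sGC animals. They were lower in the other tables, at 16.1 ± 2.12% in controls and 14.5 ± 3.03% in sGC animals in F3 females (SD, n = 4 each), and at 11.4 ± 1.46% in controls (n = 5) and 13.5 ± 2.38% in sGC animals (n = 6) in F1 males. Whether MOG reads entered the ZFP57 count was not tested.

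Relative to MOG, the difference in ZFP57 between treatments was smaller than in CPM in every table. The log2 ratio of sGC against Control was -0.11 in F1 females (exact two-sided permutation p = 0.0286, 0.0857 adjusted over the 3 female tables), -0.08 in F2 females (exact permutation p = 0.229), -0.17 in F3 females (exact permutation p = 0.371) and 0.23 in F1 males. In the F2 females and F3 females the sign of the ratio was opposite to that of ZFP57 itself. MOG itself had a log2 fold change of -0.85 in F1 females (SE 0.32, quasi-likelihood FDR = 0.0947), 1.14 (SE 0.22, FDR = 0.0517) in F2 females, 0.41 (SE 0.29, FDR = 0.509) in F3 females and 0.99 (SE 0.21) in F1 males.

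**Figure D2:**
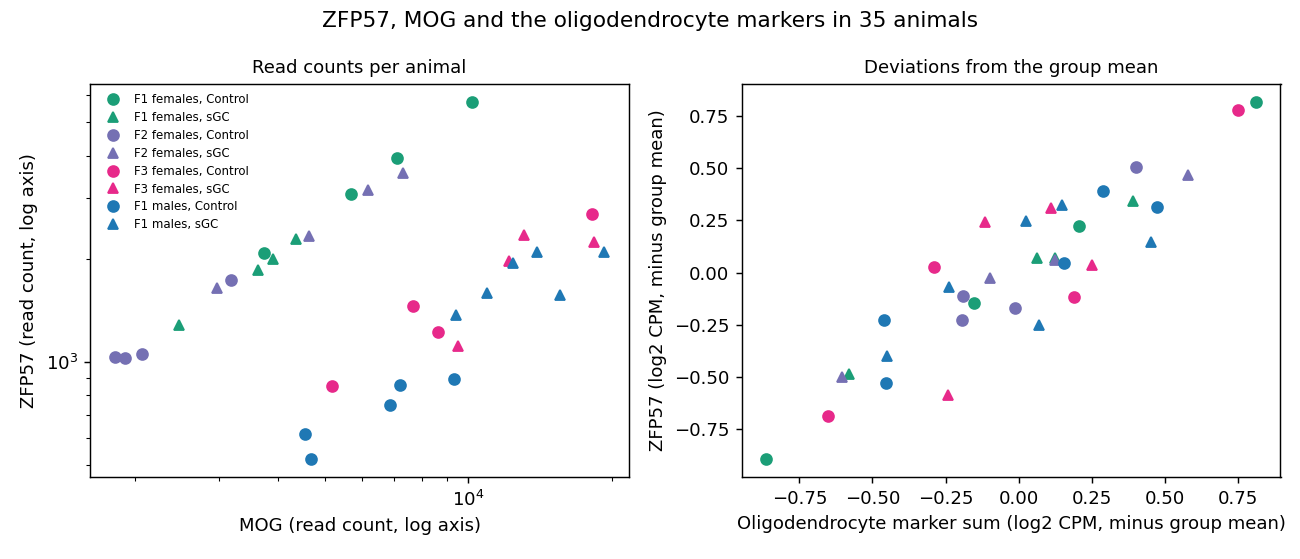
Left, ZFP57 against MOG read counts on log axes, a point per animal, with tables by colour and treatment by shape (circles Control, triangles sGC). Right, ZFP57 against the summed oligodendrocyte markers in log2 CPM after subtraction of each group mean. On the left, F1 and F2 females lie along a higher line than F3 females and F1 males. On the right, the 35 animals rise together, with r = 0.90.

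PEG3, a paternally expressed zinc finger gene, was lower on average in sGC animals in each table. In F3 females, controls were at 95.6, 102, 112 and 94.2 CPM and sGC females at 87.0, 64.2, 80.3 and 72.8 CPM. All 4 sGC animals were below all 4 controls, as for 4.35% of the genes tested in F3 females. The log2 fold change was -0.41 (SE 0.10, 95% confidence interval -0.63 to -0.20), which did not pass in the quasi-likelihood test (FDR = 0.0696) and passed in the likelihood ratio test (FDR = 0.00435) and in DESeq2 (FDR = 0.00576). The exact two-sided permutation p was 0.0286, the smallest possible, and 0.3 adjusted over the 21 tests in females. Leaving out Control 1 gave a quasi-likelihood FDR of 0.0473, and the other 7 fits without an animal gave 0.0626 to 0.193.

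The F1 and F2 females gave smaller differences in PEG3 with overlapping groups. F1 female controls were at 45.9, 48.4, 47.9 and 46.5 CPM, a coefficient of variation of 2.54%, and F1 sGC females at 42.8, 56.2, 32.5 and 38.8 CPM, a coefficient of variation of 23.5%. The F1 sGC females thus held both the lowest and the highest animal, and the log2 fold change was -0.15 (SE 0.14, quasi-likelihood FDR = 0.491). F2 controls were at 39.7, 52.6, 52.2 and 46.5 CPM and F2 sGC females at 45.1, 43.6, 27.2 and 49.6 CPM, with a log2 fold change of -0.21 (SE 0.16, FDR = 0.570). For no pair of female tables did the difference in PEG3 response pass the threshold (quasi-likelihood FDR from 0.467 to 0.881).

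F1 male controls had PEG3 at 43.7, 43.7, 52.9, 51.0 and 41.2 CPM. The sGC males ranged from 29.0 to 42.1 CPM with a median of 34.1 CPM, and 5 of 6 were below every control. The log2 fold change was -0.43 (SE 0.09). A log2 fold change below 0 in all 4 tables was found for 10.4% of the 10724 genes tested in every table.

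Within groups PEG3 was most like PLCE1 (r = 0.89), HPCAL4 (0.83) and EFNB3 (0.83) over the 35 animals. Its r with the oligodendrocyte marker sum was -0.23, against 0.90 for ZFP57, and with ZFP57 itself -0.19. The marker list with the highest r for PEG3 was that of the paraventricular hypothalamus (r = 0.68, Spearman rho = 0.73, and r = 0.65 without the 2 farthest animals). That sum, led by SST, was 165 to 221 CPM in F3 controls and 150 to 181 CPM in F3 sGC females, a log2 difference of -0.28, and in F1 males 156 to 226 CPM and 114 to 169 CPM, a difference of -0.42. Its part in the PEG3 values was not tested.

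**Figure D3:**
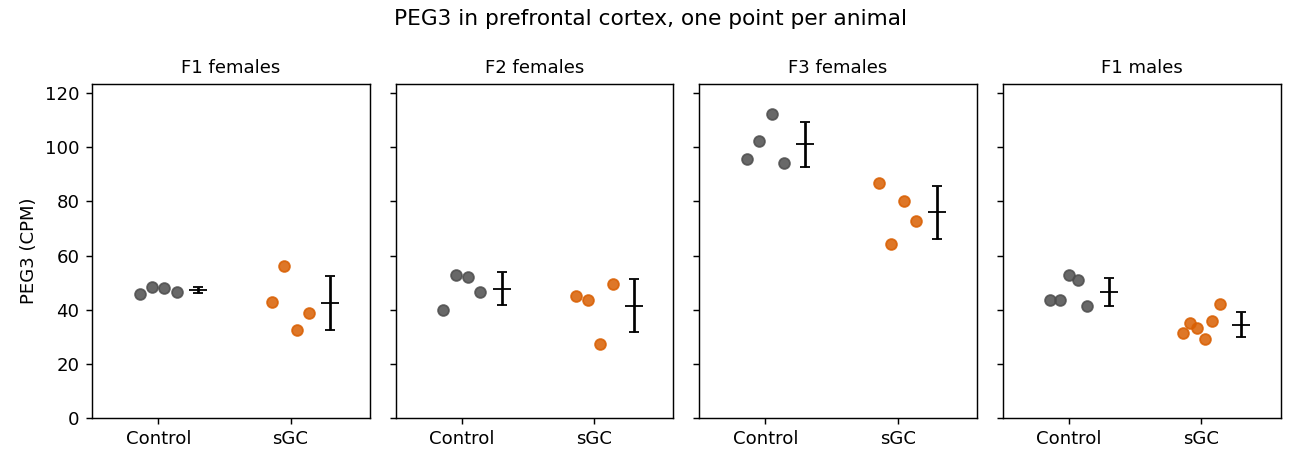
PEG3 in CPM (vertical axis) for each animal in the 4 tables, Control in grey and sGC in orange, with mean ± SD beside each group. The F3 sGC females lie below all F3 controls, and 5 of 6 sGC males lie below all male controls.

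IGF2 was the member with the fewest reads in total in each female table, from 3 to 57 per animal, and had 52 to 283 per animal in F1 males. It was at 1.53 ± 0.49 CPM (SD, n = 4) in F1 female controls and 1.36 ± 0.77 CPM (n = 4) in F1 sGC females, at 0.94 ± 0.40 and 0.61 ± 0.45 CPM in F2, and at 2.54 ± 0.51 and 2.21 ± 0.79 CPM in F3. Groups overlapped in every table. The log2 fold changes were -0.17 (SE 0.41), -0.69 (SE 0.54) and -0.18 (SE 0.26) in F1, F2 and F3 females, with quasi-likelihood FDRs from 0.570 to 0.802, and -0.33 (SE 0.36) in F1 males. At this depth the interval was wide, and in F2 females the 95% confidence interval ran from -1.87 to 0.49.

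Within groups IGF2 was most like HHIPL1 (r = 0.79), APBA1 (0.77) and DCN (0.74), the last of which encodes decorin, a proteoglycan of fibroblasts. Its r with the summed markers of meningeal fibroblasts, a list that holds DCN, was 0.53 (Spearman rho = 0.61), and 0.72 without the 2 farthest animals. With PEG3 its r was 0.56, the highest among the 21 pairs of members.

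For the other 4 members, no female comparison passed the FDR threshold. MEST, at 38.2 ± 4.68 CPM in F1 female controls and 36.7 ± 2.57 CPM in F1 sGC females (SD, n = 4 each), had log2 fold changes of -0.06 (SE 0.10), -0.13 (SE 0.08) and -0.10 (SE 0.16) in F1, F2 and F3 females and -0.03 (SE 0.06) in F1 males. NDN had -0.02 (SE 0.10), -0.04 (SE 0.06) and 0.01 (SE 0.05) in the females and -0.10 (SE 0.05) in F1 males. It was also among the steadiest members, with a coefficient of variation of 3.76% to 13.9% within groups, against 19.4% to 47.3% for ZFP57. The 95% confidence interval of the NDN log2 fold change in F3 females ran from -0.11 to 0.13.

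GRB10 in F3 females was at 29.9, 33.1, 31.5 and 33.3 CPM in controls and 26.3, 31.9, 25.6 and 27.3 CPM in sGC animals. Of the sGC animals, 3 lay below all controls. The log2 fold change was -0.20 (SE 0.08, quasi-likelihood FDR = 0.242). It was 0.00 (SE 0.10) in F1 females, -0.08 (SE 0.09) in F2 females and -0.02 (SE 0.06) in F1 males. PLAGL1, at 3.95 to 5.43 CPM on average in the female groups, had log2 fold changes of -0.08 (SE 0.21), 0.19 (SE 0.20) and -0.32 (SE 0.19) in F1, F2 and F3 females and -0.30 (SE 0.16) in F1 males. Its groups overlapped in each table, and the quasi-likelihood FDR in females ran from 0.440 to 0.822.

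Counted over the members, none of the 7 passed the quasi-likelihood FDR threshold in F1, F2 or F3 females, where 16.5%, 0.278% and 1.34% of all genes tested passed. At an unadjusted p under 0.05 there was 1 in F1 females (ZFP57), 1 in F2 females (ZFP57) and 2 in F3 females (PEG3 and GRB10), against 34.2%, 16.1% and 17.3% of all genes. The likelihood ratio test called 1 member in each female table, and 18.6%, 4.8% and 5.39% of all genes. DESeq2 called 0, 1 and 1 members, and 21.5%, 4.25% and 5.53% of all genes. The median log2 fold change of the members was -0.08, -0.08, -0.18 and -0.10 in F1, F2 and F3 females and F1 males, beside -0.03, 0.01, -0.01 and 0.00 over all genes tested.

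**Figure D4:**
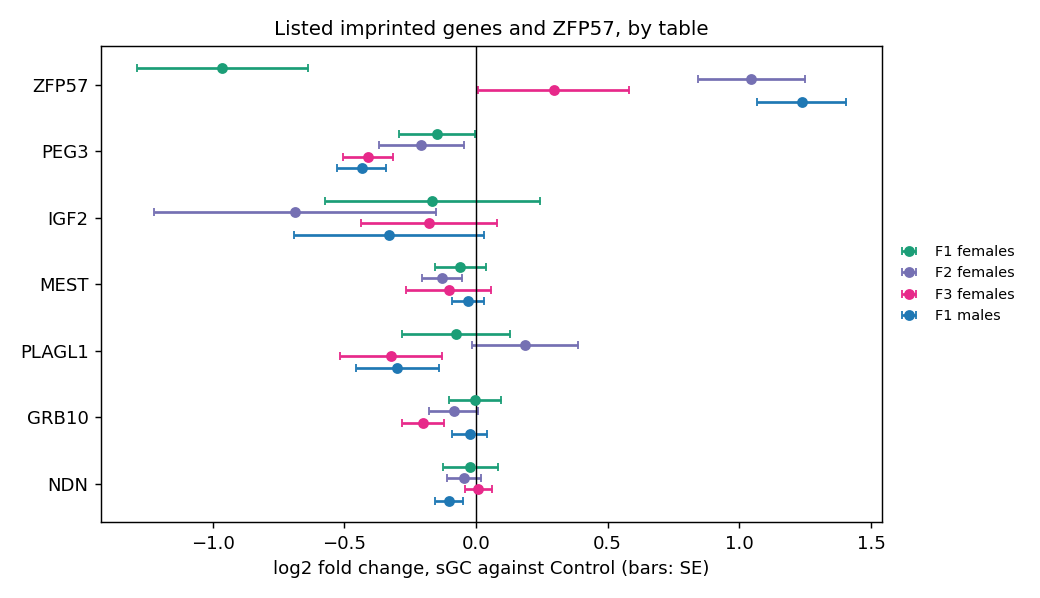
Log2 fold change of sGC against Control (horizontal axis) with its SE for the 7 listed members in each table, by colour. ZFP57 is the member whose values lie far on both sides of 0, from -0.96 in F1 females to 1.24 in F1 males, while MEST, GRB10 and NDN stay within 0.20 of it.

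The imprint machinery list, of genes that set, keep, read or erase imprint marks, held 30 genes. Among them were the DNA methyltransferases, the histone methyltransferase SETDB1 that TRIM28 recruits, heterochromatin proteins and the TET enzymes, which act in removing methylation. Of 18, 18 and 19 tested in F1, F2 and F3 females, none passed the quasi-likelihood FDR threshold, which 16.5%, 0.278% and 1.34% of all genes passed. At an unadjusted p under 0.05 there were 3, 3 and 1, beside 34.2%, 16.1% and 17.3% of all genes. DESeq2 called 1 in F1 females and 0 in F2 and F3 females, beside 21.5%, 4.25% and 5.53% of all genes. The likelihood ratio test called none, beside 18.6%, 4.8% and 5.39% of all genes. The medians were -0.06, -0.02 and -0.05 on the log2 scale, beside -0.03, 0.01 and -0.01 over all genes. In F1 males SETDB1 was at 134 ± 15.8 CPM in controls (SD, n = 5) and 196 ± 22.2 CPM in sGC males (n = 6). It had an r of 0.90 with the oligodendrocyte marker sum and 0.77 with ZFP57 within groups.

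Among 37 genes listed here as paternally expressed in mouse or human, members aside, 16 were tested in F1 females. Which copy was used was not measured, and it can differ between transcripts, as for GNAS, and between tissues and species. The parent given for each gene, PON2 and ZNF597 included, was taken as listed and not checked. The counts are thus of the list, not of a proven class. GNAS and RASGRF1 rose, NNAT and PON2 fell, and the other 12 did not pass, a share to be read against 16.5% of all genes. GNAS, counted over all its transcripts, went from 2197 ± 190 to 2737 ± 107 CPM (SD, n = 4 each), higher by 0.32 in log2 fold change (SE 0.07, quasi-likelihood FDR = 0.0226). RASGRF1, a guanine nucleotide exchange factor for RAS, went from 157 ± 15.3 to 219 ± 24.2 CPM (log2 fold change 0.48, SE 0.10, FDR = 0.0150). PON2, a paraoxonase, went from 54.4 ± 5.20 to 39.1 ± 4.54 CPM (-0.48, SE 0.10, FDR = 0.0173). NNAT, which encodes neuronatin, was low at 2.02 ± 1.10 and 0.70 ± 0.31 CPM (-1.53, SE 0.44, FDR = 0.0468), and 2 of 8 fits that left out a single animal kept its call.

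None of 16 genes listed as paternally expressed passed the quasi-likelihood threshold in F2 females, beside 0.278% of all genes. At an unadjusted p under 0.05 there was 1, beside 16.1%. The likelihood ratio test and DESeq2 called none, beside 4.8% and 4.25%. In F3 females GNAS alone of 17 passed the quasi-likelihood threshold, and it rose, beside 1.34% of all genes. There 5 were at an unadjusted p under 0.05, beside 17.3%. The likelihood ratio test and DESeq2 each called 2, beside 5.39% and 5.53%. F3 controls had GNAS at 2692 ± 181 CPM and F3 sGC females at 3377 ± 170 CPM, with no overlap (log2 fold change 0.33, SE 0.06, quasi-likelihood FDR = 0.0470). In F3 females 5.95% of the genes tested had all sGC animals above all controls. The cortical excitatory marker sum was 1977 to 2041 CPM in F3 controls and 2478 to 2740 CPM in F3 sGC females (log2 difference 0.37), and the striatal sum 323 to 934 CPM and 198 to 430 CPM (log2 difference -0.85). Their part in the F3 values was not tested. The F3 call held in 1 of 8 fits that left out a single animal. RASGRF1 had 0.33 (SE 0.07, FDR = 0.0574) in F3 females, NNAT 0.02 (SE 0.24) and PON2 0.11 (SE 0.08). In F2 females GNAS had 0.07 (SE 0.06), RASGRF1 -0.07 (SE 0.06), NNAT -0.99 (SE 0.39) and PON2 -0.00 (SE 0.08). In F1 males, GNAS had -0.02 (SE 0.04), RASGRF1 -0.15 (SE 0.06), NNAT 0.44 (SE 0.43) and PON2 0.32 (SE 0.06).

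Of 34 genes listed here as maternally expressed in mouse or human, 18 were tested in F1 females. KCNK9, TRAPPC9 and COMMD1 rose and DLX5, CD81 and IGF2R fell, 6 of 18 genes beside 16.5% of all genes. DLX5, a homeobox gene of GABAergic neurons, went from 9.86 ± 3.73 to 3.16 ± 1.41 CPM (SD, n = 4 each), or -1.64 in log2 fold change (SE 0.35, quasi-likelihood FDR = 0.0183). Striatal markers, which mark GABAergic projection neurons, differed in the same direction between these groups. IGF2R, the receptor that clears IGF2, went from 89.0 ± 5.77 to 76.5 ± 3.36 CPM (-0.22, SE 0.06, FDR = 0.0433), a call that no fit without 1 of the 8 animals kept. CD81, a tetraspanin, had -0.30 (SE 0.07, FDR = 0.0254), the potassium channel gene KCNK9 0.41 (SE 0.10, FDR = 0.0244), TRAPPC9, a trafficking protein gene, 0.28 (SE 0.06, FDR = 0.0218), and COMMD1 0.21 (SE 0.05, FDR = 0.0327). The calls of CD81 and COMMD1 each held in 2 of 8 fits that left out a single animal.

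No gene of the 18 listed as maternally expressed passed the quasi-likelihood threshold in F2 or in F3 females, beside 0.278% and 1.34% of all genes. At an unadjusted p under 0.05 there were 5 and 4, beside 16.1% and 17.3% of all genes. The likelihood ratio test called 3 and 3, beside 4.8% and 5.39% of all genes, and DESeq2 2 and 3, beside 4.25% and 5.53%. IGF2R was lower in all 4 sGC animals than in all 4 controls in F2 females (-0.16, SE 0.07, quasi-likelihood FDR = 0.312) and in F3 females (-0.15, SE 0.04, FDR = 0.119), as for 4.02% and 4.35% of the genes tested. It had 0.04 (SE 0.05) in F1 males. DLX5 had -0.03 (SE 0.17), -1.10 (SE 0.24, quasi-likelihood FDR = 0.0636) and -0.13 (SE 0.14) in F2 females, F3 females and F1 males. KCNK9 had 0.08 (SE 0.06), 0.57 (SE 0.17, quasi-likelihood FDR = 0.134) and -0.17 (SE 0.08). CD81 had -0.01 (SE 0.07), -0.01 (SE 0.05) and 0.13 (SE 0.05), and TRAPPC9 -0.11 (SE 0.10), 0.07 (SE 0.07) and 0.10 (SE 0.06).

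**Figure D5:**
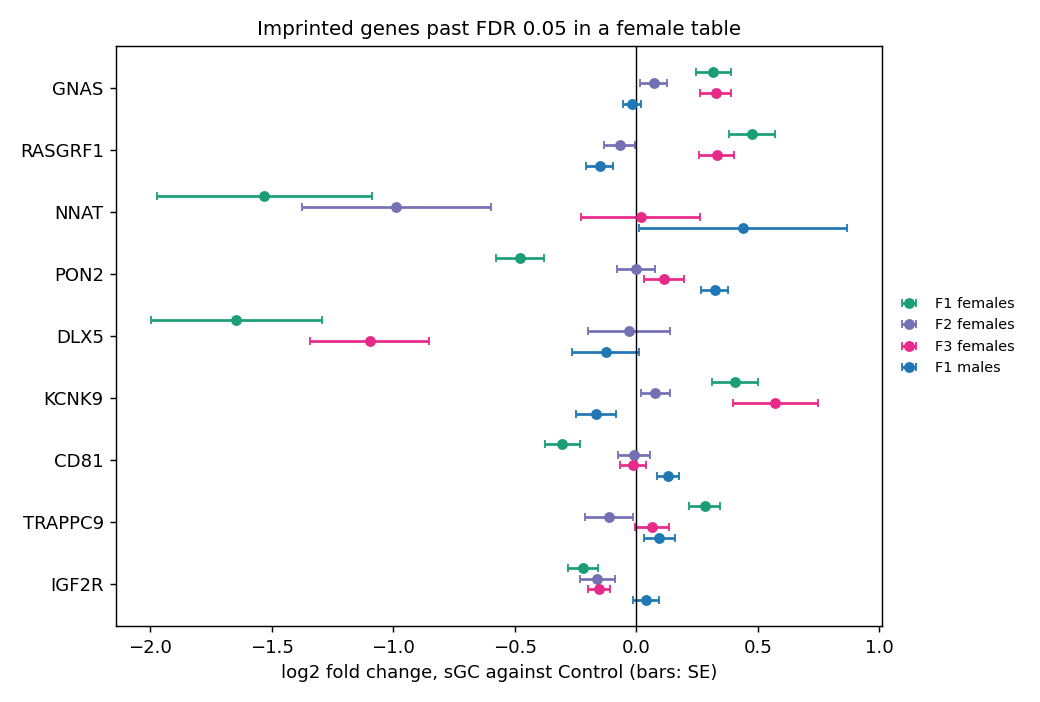
Log2 fold change of sGC against Control (horizontal axis) with its SE for the 9 imprinted genes named by rule because they passed the FDR threshold in a female table, in each table by colour. DLX5 lies at -1.64 in F1 females and -1.10 in F3 females and near 0 in the other tables, and GNAS lies at 0.32 and 0.33 in F1 and F3 females.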

How the data were processed

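RNA from prefrontal cortex was sequenced by the authors, who aligned reads with TopHat2 and deposited gene read counts in 4 tables (F1, F2 and F3 females, F1 males). The deposited counts were not normalized. The authors' own comparison columns (dispersion, fold change, p-values) were not used. The build is not given in the sources used here, and the labels name TopHat2 and edgeR without versions. Genes were kept with filterByExpr (minimum count 10, minimum total 15), normalized by TMM and tested in each table with the quasi-likelihood test of edgeR 4.0.16 (R 4.3.3), with Benjamini-Hochberg adjustment over all genes tested. CPM were TMM-scaled, and log2 CPM used a prior count of 2. Differences in response were interaction terms for pairs of female tables. Total counts, 12819964 to 31763585, set the precision. No 2 columns of a table were identical. One animal per sex and litter entered the female samples. List genes named were those past FDR 0.05 in a female table, at most 5 per list. COMMD1, SETDB1 and GATM were named after their values were seen, as were the members and lists, which were chosen with earlier results of these data known. The procedure was checked on simulated counts. Alternatives were DESeq2 1.42.0, the likelihood ratio test, other normalizations and filters, leaving out each animal, a joint fit of the 8 conditions, the replicate number as a block, exact permutation, and ratios to MOG and to oligodendrocyte markers.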

Additional observations from a re-analysis of the deposited data

Results flagged for a closer look

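Among the members and the genes of the imprint lists, the response to sGC differed between F1 and F2 females for 9 genes. The test was the interaction test of edgeR (quasi-likelihood FDR under 0.05), and values are the log2 response in F2 minus that in F1. ZFP57 differed by 1.999 (SE 0.41, FDR = 0.00907). DLX5 differed by 1.61 (FDR = 0.0211), GATM, which encodes an enzyme of creatine synthesis, by 0.74 (FDR = 0.0150), SETDB1 by 0.65 (FDR = 0.0495) and PON2 by 0.47 (FDR = 0.0258). RASGRF1 differed by -0.55 (FDR = 0.0104), COMMD1 by -0.40 (FDR = 0.00503), TRAPPC9 by -0.40 (FDR = 0.0432) and KCNK9 by -0.34 (FDR = 0.0487). The counts were 1 of 7 members, 1 of 18 imprint machinery genes, 2 of 16 genes listed as paternally expressed and 5 of 19 listed as maternally expressed. Of all genes, 13.8% passed. Within groups, ZFP57, SETDB1 and GATM had r values of 0.90, 0.90 and 0.70 with the oligodendrocyte marker sum. KCNK9 had 0.51, PON2 0.47, DLX5 -0.41, RASGRF1 -0.18, COMMD1 -0.13 and TRAPPC9 0.007.

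A single animal stood far from the rest of its group in 7 of 128 groups examined, about what chance gives at 5%, with the gap to the nearest animal as a share of the range. In F2 female controls, ZFP57 in Control 1 was at 124 CPM against 74.3 to 80.4 CPM in the others (share 0.876). Among F3 sGC females, PLAGL1 in animal 2 was at 2.92 CPM against 4.71 to 5.05 CPM (0.841), and DLX5 in animal 1 at 5.09 CPM against 2.85 to 3.19 CPM (0.851). In F2 sGC females, GNAS in animal 2 was at 2620 CPM against 2752 to 2757 CPM (0.963), IGF2R in animal 3 at 51.8 CPM against 59.6 to 61.2 CPM (0.830), and PON2 in animal 4 at 47.7 CPM against 40.3 to 41.6 CPM (0.831). IGF2R in male Control 1 was at 71.1 CPM against 80.8 to 82.9 CPM (0.818).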

How the results depend on the processing

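The difference in ZFP57 response between F1 and F2 females passed the threshold in all 23 refits of the counts, at 1.66 to 2.22 with an animal left out. No other member's response passed for any pair of female tables. The ratios to MOG and to the oligodendrocyte sum were not among these refits. The log2 ratio difference of sGC against Control was -0.11 in F1 and -0.075 in F2 females against MOG. Against the oligodendrocyte sum it was -0.20 in F1 and 0.10 in F2 females. Over the other settings tried for the female members' log2 fold changes, 305 of 336 kept the direction and the side of the threshold, 13 passed the threshold that the reported fit missed, and 18 changed sign. For the F1 males all 133, ratios aside, stayed within the replicate SD, and ZFP57 was 0.26 against the oligodendrocyte sum and 0.23 against MOG. The count of members called was 0 in each female table as reported. It was 1 in F1 females with the likelihood ratio test and with the joint fit of all 8 conditions, 1 in F2 females with the likelihood ratio test, DESeq2, all genes with a read kept, upper-quartile scaling and the replicate block, and 1 in F3 females with the likelihood ratio test and DESeq2. Over all genes these settings, in the same order, called 2100 and 3327 in F1 females and 534, 473, 76, 70 and 53 in F2 females. In F3 females they called 616 and 632. The reported fit called 1864, 31 and 153 in F1, F2 and F3 females. With an animal left out the count of members called was 0 to 1 in each female table. The sign changes were in members near 0: GRB10 in F1 females was 0.012 with DESeq2 and with RLE normalization and 0.0017 in the joint fit, and NDN in F3 females was -0.016 with upper-quartile normalization. With an animal left out, the F1 female range was -0.56 to 0.099 for IGF2, -0.10 to 0.0076 for MEST, -0.19 to 0.067 for PLAGL1, -0.072 to 0.065 for GRB10 and -0.095 to 0.061 for NDN. The same range was -0.078 to 0.0019 for NDN in F2 females, and -0.24 to 0.024 for MEST and -0.026 to 0.029 for NDN in F3 females. Ratios chosen after seeing the data turned the sign of ZFP57 in F3 females, to -0.070 against the oligodendrocyte sum and -0.17 against MOG, and in F2 females to -0.075 against MOG. The cause was not tested. Of the 10 genes most like ZFP57, 6 stayed among the 10 without the F3 females.

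Replicate numbers did not pair the animals: deviations of same-numbered animals correlated from -0.33 to 0.34. With the replicate block, ZFP57 in F2 females passed (FDR = 0.0461), while GNAS, TRAPPC9, IGF2R and COMMD1 in F1 females and GNAS in F3 females lost their calls. Genes called over whole tables were 1080, 53 and 67 with the block, against 1864, 31 and 153 in F1, F2 and F3 females. The counts over all genes were unstable otherwise too: leaving out an animal gave 613 to 2115 in F1, 0 to 487 in F2 and 20 to 598 in F3 females. The joint fit gave 3327, 10 and 396. Its 3327 genes in F1 females held 8 listed as paternally expressed, 9 listed as maternally expressed and 2 of the imprint machinery. The 1864 genes of the reported fit held 4, 6 and 0. The likelihood ratio test gave 534 and 616, and DESeq2 473 and 632, in F2 and F3 females. Upper-quartile scaling and the absence of a filter gave 70 and 76 in F2 females. With 4 animals a group, the few IGF2 and NNAT reads limit what can be seen of those genes.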
